A study of Rattus norvegicus with 4 samples.

Results

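The NR4A orphan nuclear receptors are a family of 3 genes in the rat, Nr4a1 (also called Nur77), Nr4a2 (Nurr1) and Nr4a3 (NOR-2 in the rat gene table). They were followed through every probe set whose single gene symbol in the platform annotation is one of these names. These are 3 of the 14218 genes named on the array and 6 of its 31099 probe sets: 1 for Nr4a1, 2 for Nr4a2 and 3 for Nr4a3. No probe set with several symbols held an Nr4a name. The cells were Sertoli cells, the somatic nurse cells of the seminiferous tubule, taken from male Sprague-Dawley rats aged 20 days and kept in serum-free medium. All 4 samples were cultured for 72 h. The 2 control samples had no treatment and the 2 cAMP samples had cAMP in the medium. The sources used here give neither its form nor its dose. Samples of a group are called biological replicates in the labels, which do not mention independent isolations of cells. Each p-value therefore weighs the difference between the groups only against the spread among these samples, shared in part over all probe sets. That spread may be technical.

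NR4A proteins are transcription factors whose ligand pocket is filled by bulky side chains, so their activity is set largely by how much receptor is made. They are classed as immediate-early genes because many signals, cAMP among them, start their transcription without new protein synthesis. In the textbook route cAMP frees the catalytic subunits of protein kinase A, which phosphorylate CREB on cAMP response elements. The receptors bind DNA alone at the element called NBRE, as pairs among themselves, or, for Nr4a1 and Nr4a2, together with a retinoid X receptor (RXR). In steroid-forming cells of the testis, ovary and adrenal they are known as links between pituitary hormones and steroid synthesis genes. Follicle-stimulating hormone uses cAMP as its messenger in Sertoli cells.

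Upstream sequences were available for 2 of the 3 members. They are shown here because genes that share a signal can be compared at the element through which it is known to act. The RefSeq promoter table (build GRCr8) held 1 window for Nr4a1, 1 for Nr4a2 and none for Nr4a3. The 250 bases before each start are given 5′ to 3′ on the gene's strand, with every match to the half-site of the cAMP response element (CGTCA, or TGACG for a match on the opposite strand) in capitals. The Nr4a1 window is chr7:134259888-134260137 on the plus strand and the Nr4a2 window is chr3:62104888-62105137 on the minus strand. Both lie inside the annotated span of their gene. They may therefore not precede the starts used in Sertoli cells, and the counts below describe these windows only.
Nr4a1: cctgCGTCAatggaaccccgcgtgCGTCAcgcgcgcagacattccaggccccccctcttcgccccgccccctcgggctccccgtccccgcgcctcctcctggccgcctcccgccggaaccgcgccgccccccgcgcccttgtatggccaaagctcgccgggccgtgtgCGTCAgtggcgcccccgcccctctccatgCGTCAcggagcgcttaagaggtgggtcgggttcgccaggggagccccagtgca
Nr4a2: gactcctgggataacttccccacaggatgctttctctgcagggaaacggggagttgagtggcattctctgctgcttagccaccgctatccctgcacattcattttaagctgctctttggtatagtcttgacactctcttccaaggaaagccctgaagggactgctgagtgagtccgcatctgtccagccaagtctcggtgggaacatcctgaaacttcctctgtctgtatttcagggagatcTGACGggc
The Nr4a1 window held 4 half-sites, at bases -246 to -242, -226 to -222, -82 to -78 and -53 to -49 from the start, all on the gene's own strand. The Nr4a2 window held 1, at -8 to -4 on the opposite strand. Of the 33469 RefSeq windows of this length, 18.2% held at least 1 half-site on either strand and 58 held 4 or more. All 4 half-sites of Nr4a1 stood within the longer string TGCGTCA, which was searched after the window had been read and contains the half-site. That string occurred in 1.66% of windows, and the Nr4a1 window was the only one with 4 copies. The full palindrome TGACGTCA, which contains the half-site on both strands, was in neither window and in 1.59% of all windows. The NBRE, AAAGGTCA or TGACCTTT on the other strand, was in neither window and in 1.24% of all. The windows differed in base composition, with 74.8% G and C for Nr4a1 and 52.0% for Nr4a2. A match in these letters is a description and not a shown binding site.

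On each array the deposited intensity is in arbitrary units scaled to the same trimmed mean, and the highest signal of 27 bacterial control probe sets, 14.2, was taken as background. The share of probe sets above background was 64.3% to 66.4%. The actin 3′ to 5′ ratio, a sign of RNA integrity, ran from 1.65 to 2.25, highest for control replicate 2. Of 18 Sertoli cell markers fixed for the check, 12 were tested and all 12 lay above background on every array, with the summed signal of the list between 24877 and 27836. Of these 12, 4 were called higher (Inha 2.04, Dhh 0.74, Shbg 0.69, Kitlg 0.58) and 2 lower (Gata4 -0.94, Aard -0.51). That is 50% called, against 15.4% of all genes. Single Sertoli markers thus moved with treatment while the sum varied little. Clu, Cldn11 and Aard carried the sum, joined on the cAMP arrays by Inha. Inha went from 951.6 and 1242.8 to 4344.6 and 4732.6 while Aard and Gata4 fell, so the steady sum does not mean steady markers. Among the 6 Leydig cell markers, Cyp17a1, Insl3, Lhcgr and Hsd3b1 had signals of 0.6 to 14.7, at or near background on all 4 arrays. The other 2 were above it on most arrays, Cyp11a1 at 40.6 to 50.9 and Hsd17b3 at 9.7 to 24.3. The macrophage list summed to 114.1 to 175.1 and Ptprc did not exceed 5.4. Its members did not move together: Cd68, below the filter, read 4.1 and 6.2 without cAMP and 28.1 and 45.2 with it, and Lyz2, which did not pass the test, read 47.3 and 108.6 without and 26.4 and 27.6 with. The peritubular myoid list summed to 600.3 and 442.8 in the controls and 165.5 and 215.4 with cAMP. Most of that was Tagln (344.5 and 264.3 against 1.3 and 7.4), called lower with Synpo2, while Des was called higher and Acta2 and Myh11 did not pass. Of the 5 tested members of that list 60% were called. The endothelial list summed to 229.5 and 155.6 without cAMP and 91.2 and 88.3 with it, through Kdr alone, since Tek did not differ in mean and Pecam1 and Vwf lay at background. The germ cell list, led by Sycp3, summed to 2820 to 4030, and none of its 4 tested members passed, where 15.4% of all genes did. The part of these cell types in the NR4A values was not tested. In such bulk RNA fewer cells of a type and less RNA per cell cannot be told apart.

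All 3 genes had higher signals with cAMP, and the size differed widely between them. On every one of the 6 probe sets both cAMP arrays lay above both control arrays, where 22.5% of all probe sets other than controls did so. Differences are given as cAMP minus control on the log2(signal + 16) scale ± SE, which understates changes of dim probe sets. They were tested with limma over 18625 probe sets, with p-values adjusted by the Benjamini-Hochberg method and 0.05 as the threshold. Of the 6 member probe sets 5 passed the filter on dim probe sets and all 5 were called higher. Of all tested probe sets 7.29% were called higher and 6.39% lower. However, 3 of the 5 passed the filter only through their cAMP arrays, so that count is no support by itself.

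**Figure D1:**
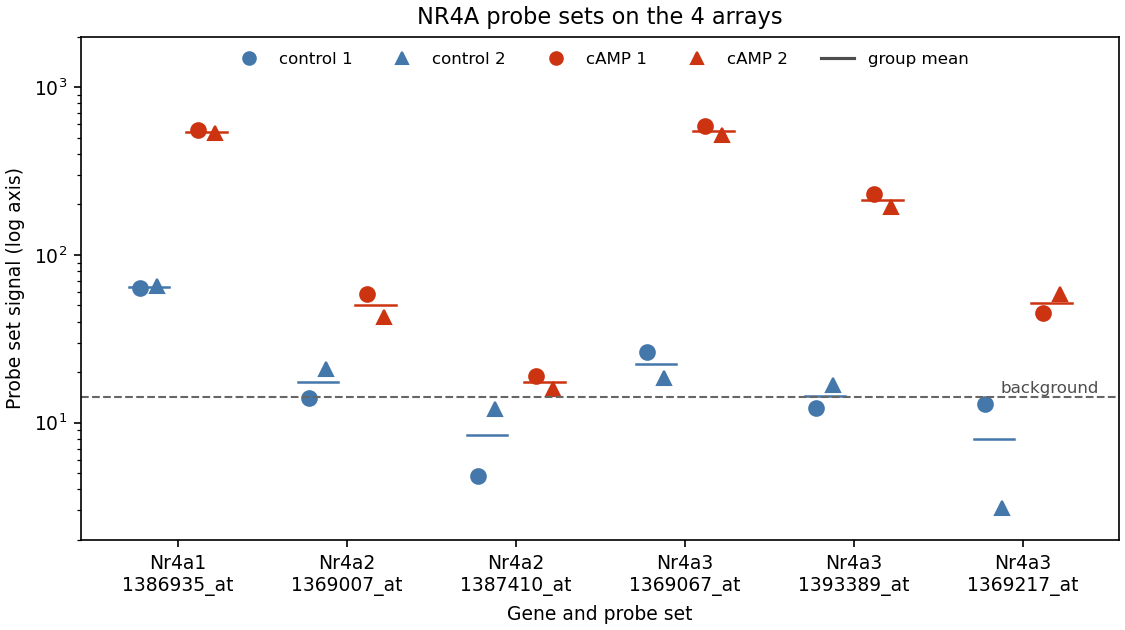
Signal of each NR4A probe set on a log axis for the 2 control arrays (blue) and the 2 cAMP arrays (red), with short lines at the group means and a dashed line at the background signal of 14.2. The red points lie above the blue ones for all 6 probe sets, with the widest gap for Nr4a3 1369067_at and the narrowest for Nr4a2 1387410_at.

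Nr4a1, the receptor known from T-cell selection and from steroid-forming cells, rose about 8-fold. Its single probe set, 1386935_at, gave signals of 63.6 and 65.6 without cAMP (replicates 1 and 2, the order used throughout) against 554.5 and 534.4 with it. The replicates of each group lay close together and all 4 values were well above background. The group means were 64.6 ± 1.41 and 544 ± 14.2 (SD, n = 2 arrays per group), a ratio of 8.43. The log2 difference was 2.80 ± 0.15 (limma adjusted p = 0.000101). This gene was above background in untreated cells, so the ratio has a measured denominator.

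Nr4a3, known in oncology as a fusion partner in a chondrosarcoma, had the largest difference of the family on its brightest probe set. Its brightest probe set, 1369067_at, read 26.3 and 18.5 in the controls and 583.7 and 516.8 with cAMP. Both control values lay above background but low, and the lower cAMP value was 19.7 times the higher control value. The means went from 22.4 ± 5.52 to 550.2 ± 47.3 (SD, n = 2), a ratio of 24.6, and the log2 difference was 3.89 ± 0.19 (limma adjusted p = 6.83e-05).
The other probe sets of Nr4a3 were also called higher, from control signals at background on 1 or both arrays, so that the floor limits their differences. Probe set 1393389_at read 12.3 and 16.7 in the controls, one of them under background, and 232.4 and 192.1 with cAMP. Its log2 difference was 2.90 ± 0.20 (limma adjusted p = 0.000239). For probe set 1369217_at neither control signal, 12.9 or 3.1, exceeded background, and the cAMP signals of 44.8 and 58.1 were at least 3.59-fold higher. Its log2 difference was 1.51 ± 0.27 (limma adjusted p = 0.0105). Their sizes cannot be ranked against that of 1369067_at, and both passed the filter only through their cAMP arrays. With a pseudocount of 64 they became 1.81 and 0.68, and both stayed past the threshold. When either cAMP array was left out, 1369217_at dropped below the filter and could not be tested.

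Nr4a2, the member needed for dopamine neurons of the midbrain, was dim in every sample. Probe set 1369007_at read 14.1 and 21.0 in the controls and 58.5 and 42.4 with cAMP. Control replicate 1 lay at background, and the means went from 17.6 ± 4.88 to 50.5 ± 11.4 (SD, n = 2). The log2 difference was 0.98 ± 0.23 (limma adjusted p = 0.0326). This probe set is one of the 3 that passed the filter only through their cAMP arrays, so the filter favoured it. With dim probe sets kept in the test it did not pass (adjusted p = 0.0996). Nor did it pass without cAMP replicate 1 (0.81, adjusted p = 0.260) or without cAMP replicate 2 (1.16, adjusted p = 0.105). The other probe set, 1387410_at, read 4.8 and 12.1 in the controls and 18.9 and 15.9 with cAMP, all at or close to background. It did not reach the filter, its difference was 0.46 ± 0.23 in the fit without the filter (limma adjusted p = 0.340), and the fold was at least 1.22. A change in Nr4a2 was thus called on 1 dim probe set only, and only with the filter and both cAMP arrays.

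**Figure D2:**
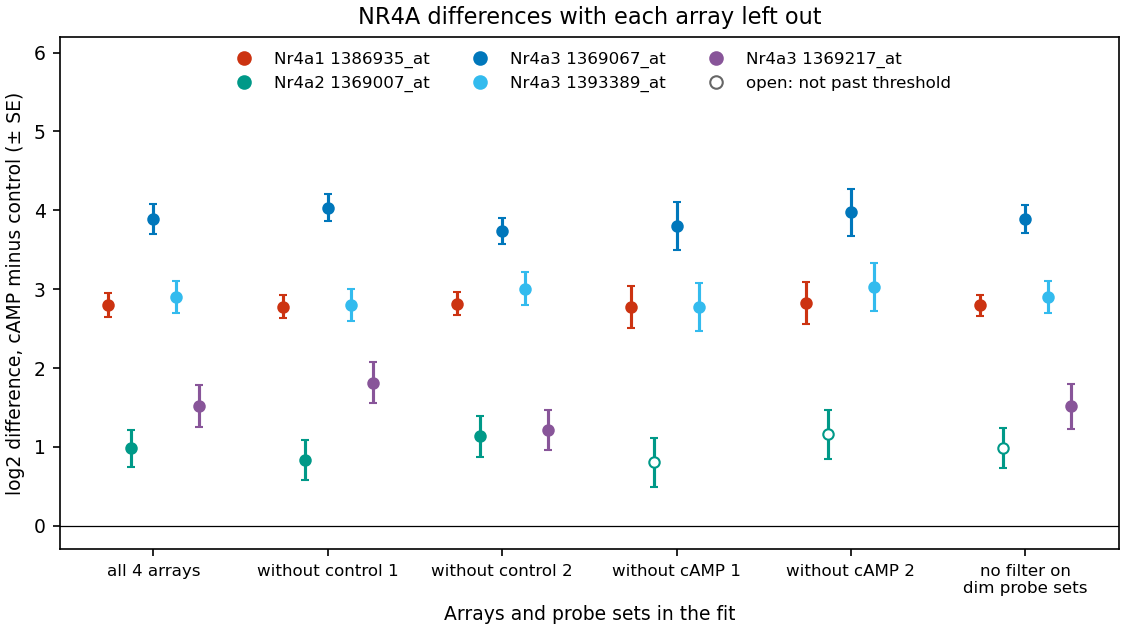
log2 difference (cAMP minus control, ± SE) of the 5 tested NR4A probe sets with all 4 arrays, with each array left out in turn, and with dim probe sets kept; open symbols did not pass the adjusted p of 0.05. Nr4a1 and the 2 brighter Nr4a3 probe sets passed throughout, between 2.77 and 4.03, while Nr4a2 was open in 3 of the 6 fits and Nr4a3 1369217_at has no value without a cAMP array.

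The members could be set side by side by their differences, not their levels, since signals of different probe sets are not comparable. Taking the brightest probe set of each gene, the difference of Nr4a3 exceeded that of Nr4a1 by 1.15 on cAMP replicate 1 and 1.03 on cAMP replicate 2, measured from the control means. The same quantity varied by 0.33 between the 2 control arrays. Nr4a2 stood below Nr4a1 by 1.66 and 1.96, where the controls varied by 0.26. Since control replicate 1 of Nr4a2 lay at background, the floor limits its difference, and the size of this gap is uncertain. The order of Nr4a3, Nr4a1 and Nr4a2 was thus the same on both cAMP arrays. With each gene taken as the mean of its tested probe sets, Nr4a3 had 2.77 ± 0.17 and Nr4a1 2.80 ± 0.15. The order of Nr4a3 and Nr4a1 therefore depends on the probe set rule, and that mean includes the Nr4a3 probe sets limited by the floor. The difference between members was not tested. With 2 arrays against 2, an exact permutation test on any 1 of the 6 probe sets gives p = 0.333 (two-sided), the smallest that this design allows.

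Among all 10035 named genes tested, each taken by its brightest tested probe set, Nr4a3 ranked 19th and Nr4a1 53rd by the size of the increase, and Nr4a2 ranked 499th. Genes called higher made up 8.27% of those tested and genes called lower 7.14%, and the median log2 difference of all genes was -0.03.

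**Figure D3:**
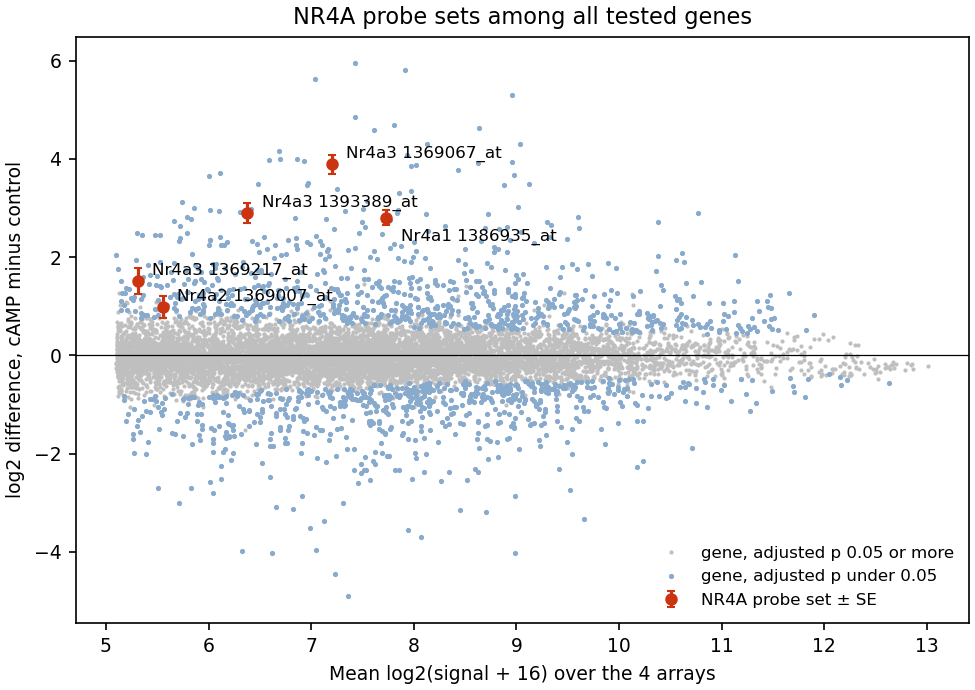
log2 difference between cAMP and control against mean log2(signal + 16) for all 10035 tested genes (grey; blue where the adjusted p was under 0.05) and for the 5 tested NR4A probe sets (red, ± SE). Nr4a3 1369067_at at 3.89, Nr4a3 1393389_at at 2.90 and Nr4a1 at 2.80 stand well above the grey points, and Nr4a2 at 0.98 lies at the edge of the genes that did not pass.

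Upstream of the receptors, most genes of the kinase and of CREB did not pass the test. The list of upstream genes held both activators and brakes, such as Hdac7, Pkig and Sik1. All 20 of its genes could be tested, and its counts do not separate the 2 kinds. The calls were 3 higher and 4 lower, and 13 missed the threshold, 35% called against 15.4% of all genes. The list's median was 0.07. Creb1 (-0.46 ± 0.23), Atf1 (0.24 ± 0.12), Ep300 (-0.04 ± 0.14) and the CREB coactivators Crtc1 (0.31 ± 0.32), Crtc2 (0.12 ± 0.19) and Crtc3 (-0.31 ± 0.14) did not pass, nor did the catalytic subunit gene Prkaca (-0.20 ± 0.17). The value for Creb1 depended on the control arrays, which read 271.2 and 431.5, against 221.4 and 272.0 with cAMP. Without control replicate 1 its difference was -0.78.
The largest change of the list was a fall. Mef2c, one of the MEF2 factors that bind the Nr4a1 promoter in T cells, read 1043.1 and 994.7 in the controls and 108.4 and 95.2 with cAMP. Its log2 difference was -3.14 ± 0.15 (limma adjusted p = 6.05e-05), opposite in sign to the receptors, and the groups lay far apart. Its relatives Mef2a (0.01 ± 0.12) and Mef2d (0.44 ± 0.22) did not pass. Hdac7, which represses Nr4a1 through MEF2 in thymocytes, was lower by limma (-0.81 ± 0.22), as were the coactivator gene Crebbp (-0.59 ± 0.15) and the kinase inhibitor gene Pkig (-0.96 ± 0.14). Higher were Sik1 (1.96 ± 0.17), a kinase that restrains CREB coactivators, Crem (1.68 ± 0.24), whose short form ICER represses cAMP response elements, and the regulatory subunit gene Prkar2b (1.05 ± 0.25). Of these 7 calls, Mef2c and Sik1 held with any 1 array left out. The count was 1 higher and 1 lower without cAMP replicate 1, 3 higher and 1 lower without cAMP replicate 2, and 2 lower without control replicate 2.

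Other immediate-early genes rose in part. All 4 arrays came from cultures of 72 h, so the timing of these changes was not tested. The list held 34, of which 27 could be tested, 6 were too dim and 1 (Btg2) had no named probe set. Calls were 10 higher and 1 lower, with 16 not past the threshold, 40.7% called against 15.4% of all genes, with a median of 0.37. Several of these genes were already known to be high when the list was written, so the count is a description. In the alternatives that kept all 4 arrays the list had 8 to 11 higher calls. Single arrays also mattered. Atf3, not past the threshold at 0.95 ± 0.34, had a difference of 1.52 without control replicate 1.
The AP-1 gene Junb read 71.3 and 47.5 in the controls and 375.4 and 431.6 with cAMP (2.49 ± 0.21), the largest increase on the list. Fos (1.86 ± 0.16), Sik1 and Ier2 (2.17 ± 0.21) completed the 4 with the smallest p. Egr1, a zinc finger factor that mitogens induce together with Nr4a1, went the other way, from 329.8 and 441.6 to 132.2 and 152.4 (-1.33 ± 0.19, limma adjusted p = 0.00433). Without cAMP replicate 1 the call on Egr1 was lost, and without control replicate 2 the list had 3 lower members. On the log2(signal + 16) scale none of the 27 had a difference above that of Nr4a1, and 9 lay above Nr4a2. That order depends on the scale for dim genes: Gem, which encodes a small GTPase, read 21.9 and 11.2 against 102.2 and 179.0, a ratio of means of 8.50 beside 8.43 for Nr4a1, with 1 control under background.
Of the 34 genes 22 had a promoter window, and 16 of these held the half-site, against 20.0% of all gene symbols. The most in any of their windows was 3, compared with 4 for Nr4a1.

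Among partners and cofactors of the receptors the 1 called gene was a repressor. The list held 16 genes, of which 10 could be tested, 3 were too dim and 3 had no named probe set. None was higher, 1 was lower and 9 did not pass, 10.0% called against 15.4% of all genes, a share near that background, and the median was -0.05. Without control replicate 1 there was 1 higher call, Trim28 (0.45). Among the RXR genes, Rxrb, at 56.3 and 62.7 against 45.9 and 54.8 with cAMP, did not pass (-0.19 ± 0.20). Rxra lay under background on all 4 arrays, at 3.6 to 8.5, and Rxrg reached 14.7 at most. The 1 lower gene was Nr0b2, which encodes SHP, a receptor without a DNA-binding domain that represses other nuclear receptors, Nr4a1 included. It read 129.6 and 201.2 in the controls and 56.1 and 56.5 with cAMP (-1.30 ± 0.23, limma adjusted p = 0.0106), and this call was lost when either cAMP array was left out. The related repressor gene Nr0b1 (DAX1) had cAMP values of 166.3 and 74.9 around control values of 126.2 and 128.2 and did not pass (-0.15 ± 0.31). Corepressor genes Ncor1 (0.11 ± 0.15), Rcor1 (0.19 ± 0.17) and Kdm1a (-0.07 ± 0.15) did not pass either.

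Genes reported elsewhere as NR4A targets were mostly dim in these cells. The 4 target lists held 42 genes, of which 12 could be tested and 2, Star and Srebf1, passed. That is 16.7%, near the 15.4% of all genes. Of the 14 steroidogenic and endocrine genes only Star and Cyp11a1 were tested, with 10 below the filter and 2 with no probe set named. Star, whose protein brings cholesterol into mitochondria and whose promoter Nr4a1 is known to bind in Leydig cells, read 81.0 and 48.9 in the controls and 3369.3 and 2852.5 with cAMP. Its log2 difference of 5.30 ± 0.21 (limma adjusted p = 2.90e-05) was larger than that of any NR4A gene. Cyp11a1, the side-chain cleavage enzyme, stayed between 40.6 and 50.9 and did not pass (0.12 ± 0.20).
Cyp19a1, the aromatase gene that makes oestrogen from androgen and that cAMP is known to induce in young Sertoli cells, shows what the filter leaves out. Its brightest probe set, 1382425_at, read 13.6 and 11.0 against 12 and 31.6, and was not tested. Probe set 1379643_at went from 4.2 and 1.1, under background, to 42.4 and 35.8, at least 2.74-fold higher, and 1369444_at from 1.9 and 0.6 to 25.4 and 27.0, at least 1.84-fold higher. In the fit without the filter these had log2 differences of 1.57 ± 0.22 and 1.29 ± 0.18 (limma adjusted p = 0.0176 and 0.0183). Cyp19a1 joined Star as a second called gene of the list with a pseudocount of 64, without control replicate 1 and without control replicate 2. These probe sets were singled out after their values had been seen. Cyp17a1, Hsd3b1 and Insl3 read 0.6 to 14.7 in both groups.
Of the 12 metabolic targets 5 were tested and 1 was higher, 20.0% called against 15.4% of all genes: Srebf1, a regulator of lipid synthesis, went from 209.8 and 152.1 to 420.5 and 393.8 (1.12 ± 0.18, limma adjusted p = 0.00805). The call was lost without cAMP replicate 1 and without cAMP replicate 2. A second Srebf1 probe set, 1371104_at, read 67.7 and 56.3 in the controls and 100.5 and 111.4 with cAMP. In the fit without the filter its log2 difference was 0.65 ± 0.19 (limma adjusted p = 0.127, beside 0.0259 for the first probe set). The gluconeogenesis genes Fbp1 (-0.26 ± 0.23) and Fbp2 (-0.75 ± 0.35) did not pass. Of the 6 neuronal targets, for which Nr4a2 is best known, only Slc18a2 was tested and it did not pass (-0.01 ± 0.21), while Th, encoding the dopamine synthesis enzyme, read 11.1 to 22.4. Of the 10 genes of survival, the cell cycle and immunity 4 were tested and none passed, where 15.4% of all genes did. The nearest was Bcl2, at 46.8 and 45.1 against 22.8 and 26.7 (-0.61 ± 0.20, limma adjusted p = 0.0946). With so few genes tested, the counts of this list and of the neuronal list say little about such targets.
Of 31 target genes with a promoter window, 2 held the NBRE, against 1.30% of all gene symbols: Cyp21a1 and Ddc, both below the filter. Star had no window.

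**Figure D4:**
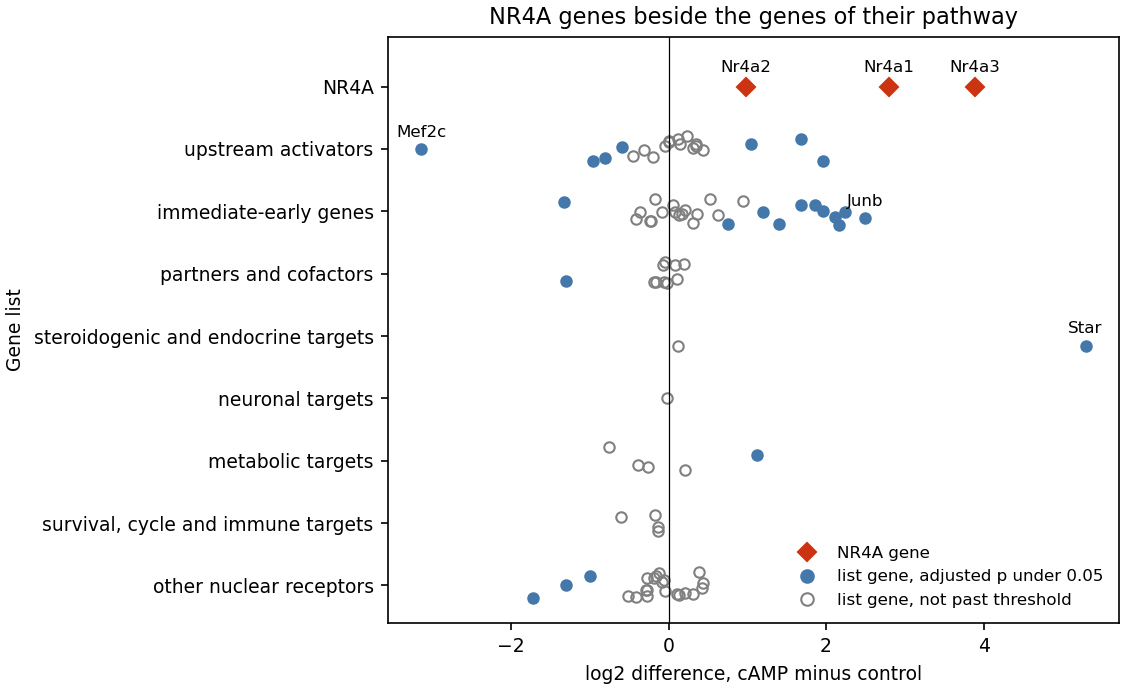
log2 difference between cAMP and control for the NR4A genes (red diamonds) and for every tested gene of 8 lists, 1 list per row, filled where the adjusted p was under 0.05; vertical scatter within a row has no meaning. Nr4a3 and Nr4a1 lie to the right of all tested list genes except Star at 5.30, and Mef2c at -3.14 lies farthest left.

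No other tested nuclear receptor gene was called higher. There were 46 other receptor genes, of which 22 could be tested, 17 were too dim and 7 had no named probe set. None was called higher, where 8.27% of all genes were, 3 were lower and 19 did not pass. In all 13.6% were called against 15.4% of all genes, a share near that background, and the median was -0.14. In 5 of the 22, Rara and Esrra among them, both cAMP values lay above both controls, against 27.1% of all tested probe sets. The differences of the 22 ran from -1.72 to 0.44 (Rara). Nr4a1 and Nr4a3 lay above that range, as did Nr4a2, whose place rests on the filter that dropped 17 dim receptors and admitted it through its cAMP arrays.
The lower ones were Esrrg, an oestrogen-related receptor of energy metabolism, Nr1d2 (REV-ERB beta), a repressor in the circadian clock, and Nr0b2. Esrrg went from 86.6 and 101.2 to 21.8 and 13.5 (-1.72 ± 0.22, limma adjusted p = 0.00283), the last value under background. Nr1d2 went from 1457.2 and 1796.2 to 797.0 and 802.2 (-1.002 ± 0.14, limma adjusted p = 0.00425). Without cAMP replicate 1, and likewise without cAMP replicate 2, Esrrg was the only lower call. Without control replicate 1 there was 1 higher call, Nr1h2.
Nr5a1 (SF-1), which binds an element close to the NBRE and shares steroidogenic targets with NR4A, read 236.7 and 241.3 in the controls and 203.2 and 185.8 with cAMP. The groups did not overlap but the difference did not pass (-0.28 ± 0.15, limma adjusted p = 0.289).

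**Figure D5:**
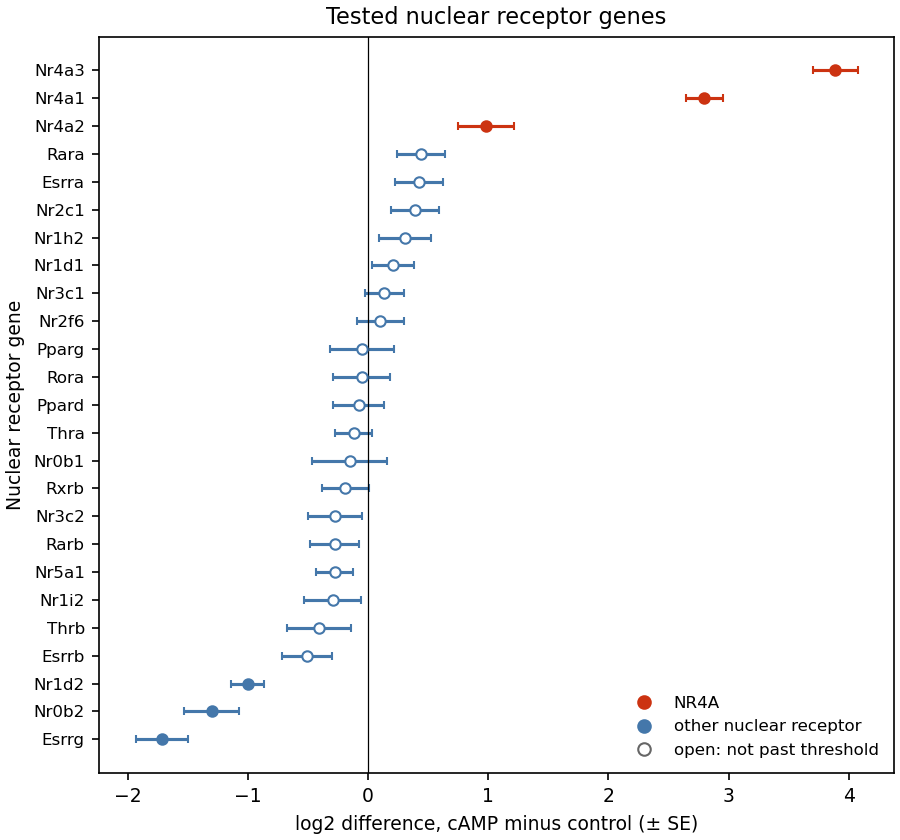
log2 difference (cAMP minus control, ± SE) of the 25 tested nuclear receptor genes, NR4A in red and the other 22 in blue, ordered by value and filled where the adjusted p was under 0.05. The 3 NR4A genes occupy the top places, at 3.89, 2.80 and 0.98, and the only other filled points are Nr1d2, Nr0b2 and Esrrg at the lower end.

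The genes most like each member were taken as the 3 with the smallest root mean square distance over the 4 arrays, after each gene's control mean had been subtracted on the log2 scale. Nearest to Nr4a3 were Akr7a3, an aldo-keto reductase gene, which went from 98.8 and 74.3 to 1620.1 and 1411.5 (distance 0.03), Cbarp (0.08) and Tinagl1 (0.10). Nearest to Nr4a1 were Ephb3, an ephrin receptor gene (0.10), Cyp1b1, a cytochrome P450 gene (0.10), and the chemokine receptor gene Cxcr4 (0.13), which went from 73.7 and 61.6 to 588.7 and 630.5. Nearest to Nr4a2 were Enc1 (0.06), Fcgbp (0.07) and C11h21orf91 (0.07), all close to a doubling on this scale, with log2 differences of 0.92 to 1.00. With 4 arrays in 2 groups, likeness mostly means a similar difference between the groups.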

How the data were processed

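RNA of 4 cultures was hybridised to 1 Affymetrix array each. Each deposited value is a linear intensity of a probe set. The submitters' processing notes name GCOS and MAS5 without versions, and the sources used here give no settings. Every array had the same mean, 125.0, once the lowest and highest 2% of values were set aside, so the authors had scaled them alike. Detection calls were not used here. Symbols came from the platform annotation, where 20832 probe sets have 1 symbol, 436 several and 9831 none, and 20764 were brought up to date through a RefSeq gene table (GRCr8). From the intensities log2(signal + 16) was computed with no further normalization. Probe sets under the 40th percentile of the mean (5.10 on the log2 scale) were left out. limma 3.58.1 in R 4.3.3 (lmFit, eBayes with an intensity trend) was fitted to all 18625 remaining probe sets and was tested on simulated data. Where a whole group lay at background, the fold is a lower bound: geometric means were compared after raising low values to 14.2. The members, lists, tests and alternatives were chosen with earlier results of these data known. Named genes are the members, up to 4 list members with the smallest p in each direction, all members of counts of 5 or fewer, and the 3 nearest genes of each member. Further genes in the text were picked with their values in view. The number of arrays limits the precision. Alternatives changed the pseudocount, the filter, the scaling, the trend, the probe set rule, a replicate block and the arrays used.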

Additional observations from a re-analysis of the deposited data

How the results depend on the processing

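Nr4a1 and the Nr4a3 probe sets 1369067_at and 1393389_at kept their direction and stayed past the threshold under every alternative that was run, with log2 differences of 2.24 to 2.999, 2.83 to 4.41 and 1.81 to 3.55 and limma adjusted p up to 0.00338, 0.00220 and 0.00544. Nr4a3 1369217_at stayed past it in the 8 alternatives that could test it (adjusted p up to 0.0444); the stricter filter and leaving out either cAMP array removed it. Nr4a2 1369007_at passed in 7 of 10 alternatives (adjusted p 0.0264 to 0.260). It was lost without the filter, where more dim probe sets were tested (0.98, adjusted p = 0.0996), and its value ranged from 0.81 to 1.16 with 1 array left out; the stricter filter removed it. With 1 array left out the calls over the whole array ranged from 396 to 2467 higher and 314 to 2381 lower, against 1358 and 1191 with all, and without the filter they were 873 and 725. The lowest counts came without cAMP replicate 1 and the highest without control replicate 1; the cause was not tested. Of 86 distinct list genes tested 21 were called, and 10 to 30 with 1 array left out. Of those 21, 10 kept their call with each array left out in turn. The 21 calls among 86 list genes stand beside 15.4% called of all genes with all 4 arrays. The lists were chosen with earlier results known, so this count is a description. No such share of all genes is given for the fits with 1 array left out, where calls over the whole array also moved. Of 192 counts per list, direction and alternative, 174 were within 1.5 times the main count and 18 were not. With the replicate number as a block, 1540 probe sets were higher and 1495 lower, 22 list genes were called, and Nr4a2 had 0.98 ± 0.24 (limma adjusted p = 0.0267); no call on an NR4A probe set changed. Deviations of same-numbered samples correlated at r = 0.163 across probe sets, which with 2 pairs does not show that the numbers pair the samples. The pseudocount sets the size of the smallest differences: Nr4a2 had 1.34 with 4 and 0.49 with 64.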

Other observations

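The half-site that stands 4 times before Nr4a1 was also counted before all other genes. Among tested genes with a promoter window, 8.31% of 5883 genes without a half-site were called higher, 7.74% of 1899 with 1, 7.83% of 511 with 2 and 8% of 175 with 3 or more. The share called lower went from 7.48% with none to 6.00% with 1, 2.54% with 2 and 1.71% with 3 or more, which is 3 genes. These shares are a description over genes, which are not independent, and no test was made. Base composition was not held equal between these classes.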
